A study of Mus musculus with 20 samples.

Results

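The 46 genes described here encode the vacuolar H+-ATPase (v-ATPase) and the machinery by which mTORC1 senses nutrients at the lysosome. They were listed by name, not by any measured value, but with earlier results of these data known. They were taken from the 45706 gene identifiers counted in each sample. The list holds 7 genes of the membrane sector V0, 8 of the cytosolic sector V1, 2 v-ATPase accessory proteins, 5 Ragulator subunits, 4 Rag GTPases, Flcn with its partners Fnip1 and Fnip2, 4 mTORC1 subunits, Rheb with Tsc1 and Tsc2, 3 genes each of GATOR1 and GATOR2, and 4 amino acid sensors. Each matched a single identifier, and all 46 passed the filter on low counts in tumors and in cells. RNA sequencing had been done on 20 samples from the PyMT model, in which a viral oncogene under a mammary promoter gives rise to breast tumors, on a C57BL/6N background. The tumors came from 18-week-old mice: 4 controls, labeled wild type, and 4 MMTV-cre;Ctsd-/- tumors, in which cre removes Ctsd, the gene of the lysosomal protease cathepsin D, from mammary epithelium only. The paper counts mice with untargeted or floxed Ctsd alleles as controls, and the labels do not say which alleles these 4 had. The cells were spontaneously immortalized tumor cells kept in medium with 1% fetal calf serum (FCS), a mild starvation, either short-term for 10 days, called 1% FCS here, or long-term for 12 weeks, called LT (1% FCS LT in the plots), with 3 samples for each of Ctsd+/+ and Ctsd-/- at each time. Each genotype of cells was 1 line from 1 mouse, so genotype and line cannot be told apart, and the replicates measure the spread within a line. In the tumors, a code in the labels marked LR, whose meaning is not stated, coincides with genotype, so whatever it marks cannot be told apart from genotype. In the cells, replicate 1 of both 1% FCS groups had a code found at that time only, as had replicate 3 of both LT groups. The other 8 cell samples shared 1 code, so the code goes partly with time and not with genotype.

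The v-ATPase is a rotary proton pump: V1 hydrolyzes ATP, and V0 carries protons into the lysosome. The pump also binds Ragulator, the complex that tethers the Rag GTPases to the lysosomal membrane, and active Rags bring mTORC1 to its activator Rheb when amino acids are present. GATOR1 and the TSC complex switch Rags and Rheb off, GATOR2 opposes GATOR1, and sestrins and Castor1 bind GATOR2 when leucine or arginine is scarce. Lysosomal proteases such as cathepsin D supply amino acids to this system.

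Between 49725437 and 64291587 reads were assigned to genes in the tumors and between 33622831 and 40239762 in the cells. Ctsd was at 114 to 192 CPM (read counts scaled to a common library size) in the 6 Ctsd-/- cell samples, against 1266 to 4199 in the 6 Ctsd+/+ samples. In tumors it was at 360 to 1295 CPM in MMTV-cre;Ctsd-/- and 1781 to 2617 in controls, and the groups did not overlap. Ctsd+/+ cells stood apart from the Ctsd-/- cells in sums of cell type markers at both times. In 1% FCS their 5 epithelial markers (Epcam, Cdh1, Krt8, Krt18, Krt19) summed to 878 to 1692 CPM, against 7311 to 10110 in Ctsd-/- cells in 1% FCS, 4284 to 4702 in Ctsd+/+ LT and 5196 to 6011 in Ctsd-/- LT. Their 5 fibroblast markers (Col1a1, Col1a2, Pdgfra, Dcn, Lum) summed to 607 to 2351 CPM with Lum at 0, against 3.00 to 14.8 elsewhere. In LT the 6 macrophage markers of Ctsd+/+ cells summed to 55.4 to 64.5 CPM, against 6.51 to 27.5 in the other cell groups, and their 4 endothelial markers to 0.595 to 1.22, against 1.31 to 7.02. Between the lines in LT, 1 of the 3 macrophage markers tested was higher and 2 lower in Ctsd-/- cells, and 2 of the 3 endothelial markers were higher. Of the 5 epithelial markers 1 was higher and 1 lower there, with a median log2 difference of 0.07. Of the 3 fibroblast markers tested 1 was higher and 0 lower. Each cell comparison that uses Ctsd+/+ samples thus also compares cells of different marker levels, and the part of this in the results below was not tested. In bulk samples, fewer cells of a type and less RNA per cell cannot be told apart.

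A gene was called in the cells when its edgeR adjusted p was under 0.05 over the 15178 genes tested. In 1% FCS, 10 of the 46 genes were higher in Ctsd-/- than in Ctsd+/+ cells and 6 were lower, beside 23.5% and 25.1% of all genes. In LT, 7 were higher and 7 lower, beside 20.5% and 19.1%. From 1% FCS to LT, 19 rose and 5 fell in Ctsd+/+ cells, beside 23.0% and 23.4% of all genes. Over the same interval 1 rose and 0 fell in Ctsd-/- cells, beside 1.57% and 0.810%. Of the 46, 9 had an unadjusted edgeR p under 0.05, a looser threshold for which no share of all genes was taken. At the adjusted threshold DESeq2 called 2 higher and 0 lower, and limma-voom 1 and 0. With a log2 fold change past 1 required as well, 2 remained called in 1% FCS (25.0% of all genes) and 4 in LT (19.4%). For time, 2 remained in Ctsd+/+ cells (23.4%) and 0 in Ctsd-/- cells (1.48%). The median log2 difference over the 46 genes was 0.17 in 1% FCS, 0.03 in LT, 0.31 for time in Ctsd+/+ cells and 0.02 for time in Ctsd-/- cells, with medians over all genes between -0.0035 and 0.014. Of the 16 calls in 1% FCS 11 held in all alternative analyses that kept the threshold and tested the gene, and of the 14 in LT 10 did. There were 16 such alternatives, and 15 for Atp6v0e2, which the filter of at least 10 reads in every sample left out. Counts of alternatives below leave out the requirement of a log2 change past 1. Among the cells, 2 of the 3 Ctsd-/- samples in 1% FCS had deviations that fell with exon length (Spearman rho -0.470 and -0.399 over the 46 genes), against -0.106 to 0.249 in the other 10. With the length trend of each sample removed, 16 genes were again called in 1% FCS, 15 of them the same. These comparisons share groups of samples and are not independent of each other.

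**Figure D1:**
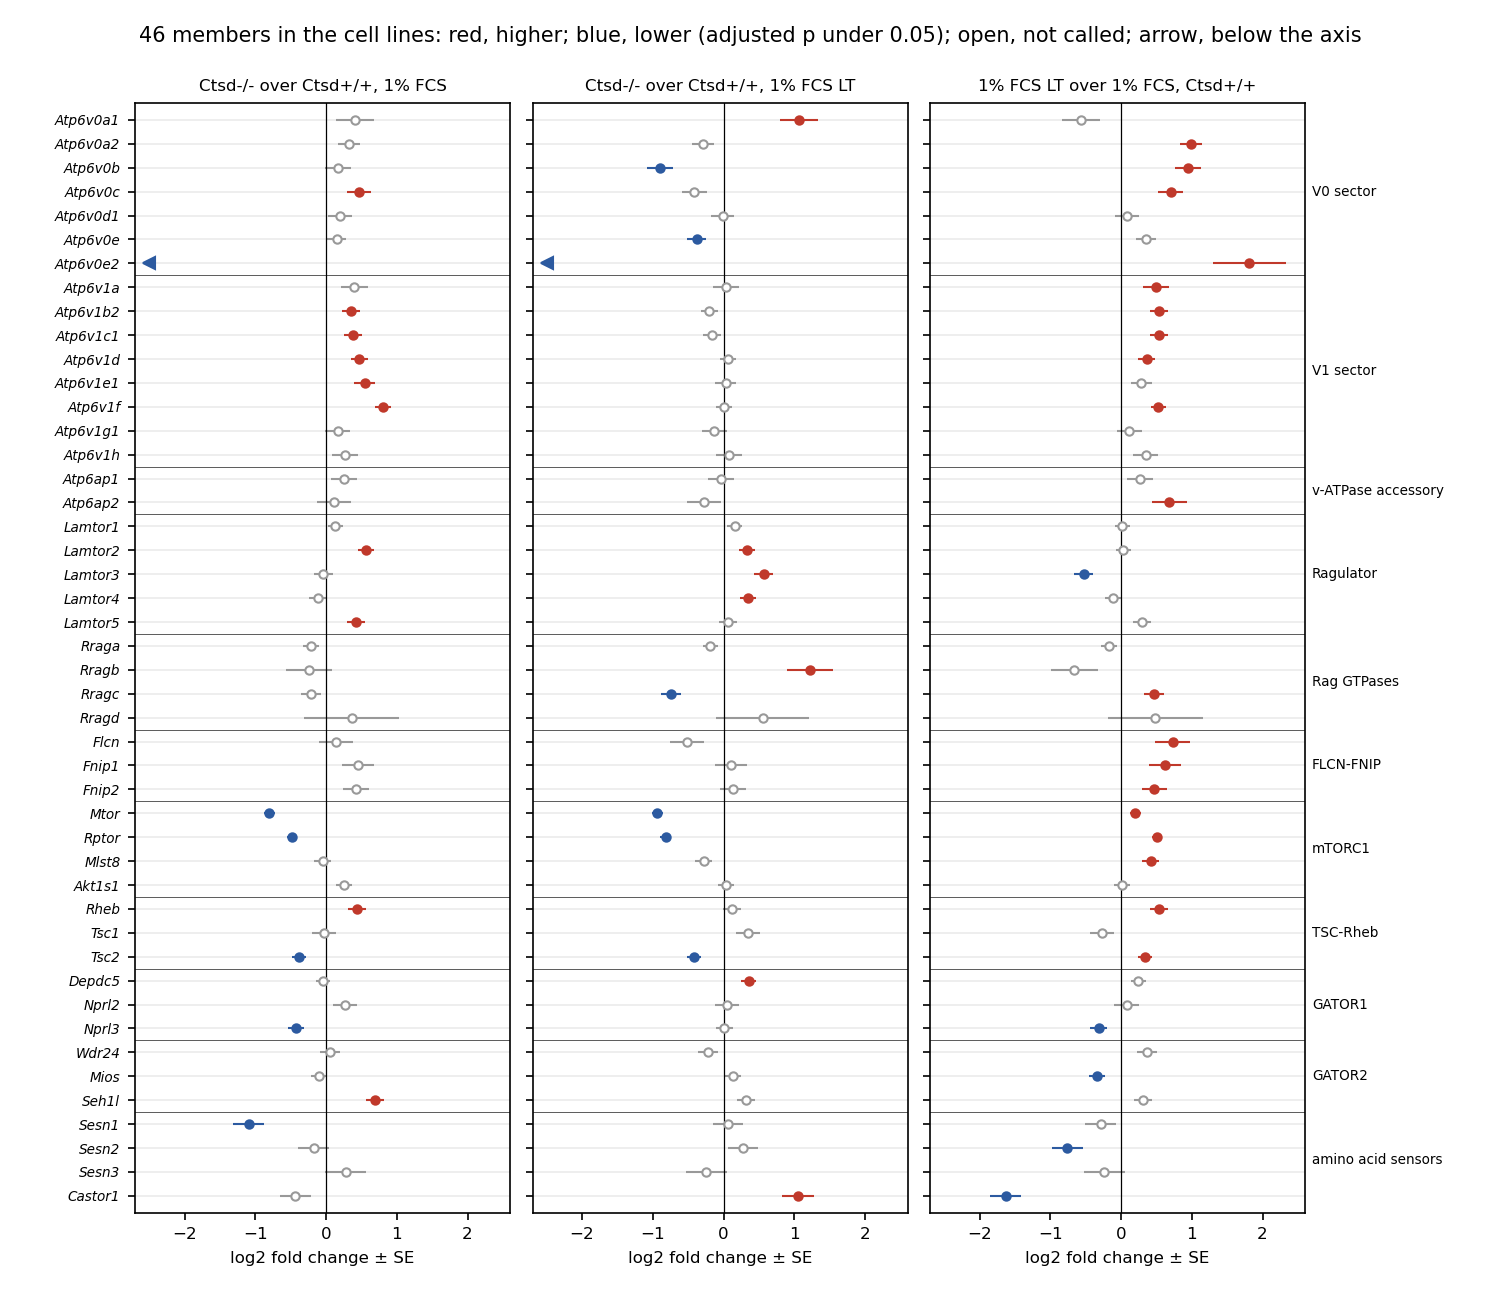
log2 fold change with its standard error for all 46 genes, by role, in 3 comparisons of the cell lines (3 samples a group). Filled points were called (red, higher; blue, lower; adjusted p below 0.05), and open points were not. Arrows mark Atp6v0e2, below the axis at -3.93 and -6.41. Mtor, Rptor and Tsc2 lie left of 0 in both genotype comparisons, and the v-ATPase genes lie mostly right of 0 in the right panel.

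Of the 46 genes, Mtor had the lowest adjusted p between the lines at both times. Mtor, the kinase of mTORC1 (chr4:148448611-148557683, forward strand, GRCm38), was at 121, 128 and 122 CPM in Ctsd+/+ cells in 1% FCS and at 71.6, 72.3 and 68.9 in Ctsd-/- cells. In LT it was at 137, 146 and 144 CPM in Ctsd+/+ cells and at 74.1, 70.5 and 78.2 in Ctsd-/- cells. All 6 Ctsd-/- samples lay below all 6 Ctsd+/+ samples. Mtor was thus 1.74-fold lower in 1% FCS (log2 -0.80 ± 0.08 SE, edgeR adjusted p = 7.7e-06) and 1.91-fold lower in LT (-0.94 ± 0.08, edgeR adjusted p = 4.3e-06).

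Rptor, the scaffold that recruits mTORC1 substrates (chr11:119602905-119899576, forward strand), followed the same order. It was at 154, 154 and 145 CPM in Ctsd+/+ cells in 1% FCS and at 111, 108 and 106 in Ctsd-/- cells. In LT the values were 217, 214 and 213 CPM against 123, 117 and 125. The groups did not overlap at either time. Rptor was lower in Ctsd-/- cells by log2 -0.48 ± 0.07 in 1% FCS (edgeR adjusted p = 0.00026) and -0.82 ± 0.07 in LT (edgeR adjusted p = 8.0e-06). Its gap widened with time by -0.34 ± 0.10 (edgeR adjusted p = 0.029), a call that 9 of 21 alternative analyses did not keep, with adjusted p up to 0.231. For Mtor the same difference of differences was -0.14 ± 0.11 (edgeR adjusted p = 0.38).

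The other mTORC1 subunits were not called between the lines. Mlst8, which binds the kinase domain, was at 29.7, 33.4 and 31.0 CPM in Ctsd+/+ cells and 30.4, 32.4 and 28.6 in Ctsd-/- cells in 1% FCS. In LT it was at 47.1, 42.2 and 36.9 CPM in Ctsd+/+ and 39.3, 32.5 and 32.2 in Ctsd-/- cells, and the groups overlapped at both times. Leaving out replicate 3 of the Ctsd+/+ LT cells or replicate 1 of the Ctsd-/- LT cells brought the LT difference of -0.28 past the threshold (edgeR adjusted p = 0.041 and 0.042). Akt1s1 (PRAS40, an inhibitory subunit) differed by 0.25 in 1% FCS and 0.03 in LT, without a call. Within Ctsd+/+ cells, Rptor (0.51), Mlst8 (0.42) and Mtor (0.20) rose from 1% FCS to LT. The rise of Mtor kept its call in only 2 of 16 alternatives, and that of Mlst8 lost it without Ctsd+/+ LT replicate 1 (0.33, edgeR adjusted p = 0.058).

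Rheb, the GTPase that activates mTORC1, was at 63.6, 75.6 and 73.7 CPM in Ctsd+/+ cells and 84.6, 111 and 92.7 in Ctsd-/- cells in 1% FCS. The Ctsd-/- samples were all higher (0.44 ± 0.13, edgeR adjusted p = 0.015). Without Ctsd+/+ replicate 1 or Ctsd-/- replicate 2 this was no longer called (0.36 and 0.32, edgeR adjusted p = 0.056 and 0.071). In LT, Rheb was at 96.5, 111 and 101 CPM in Ctsd+/+ cells and at 95.3, 118 and 121 in Ctsd-/- cells, and the groups overlapped. Tsc2, the GTPase-activating protein for Rheb (chr17:24595816-24632630, reverse strand), was lower in Ctsd-/- cells at both times. It was at 121, 113 and 120 CPM against 99.2, 84.2 and 88.2 in 1% FCS (-0.38 ± 0.10, edgeR adjusted p = 0.0083), and at 136, 163 and 149 against 114, 102 and 119 in LT (-0.42 ± 0.10, edgeR adjusted p = 0.0059). With time in Ctsd+/+ cells, Rheb (0.53) and Tsc2 (0.34) both rose, and the call of Tsc2 was lost in 2 of 16 alternatives. Tsc1, its stabilizing partner, was called in none of the cell comparisons.

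**Figure D2:**
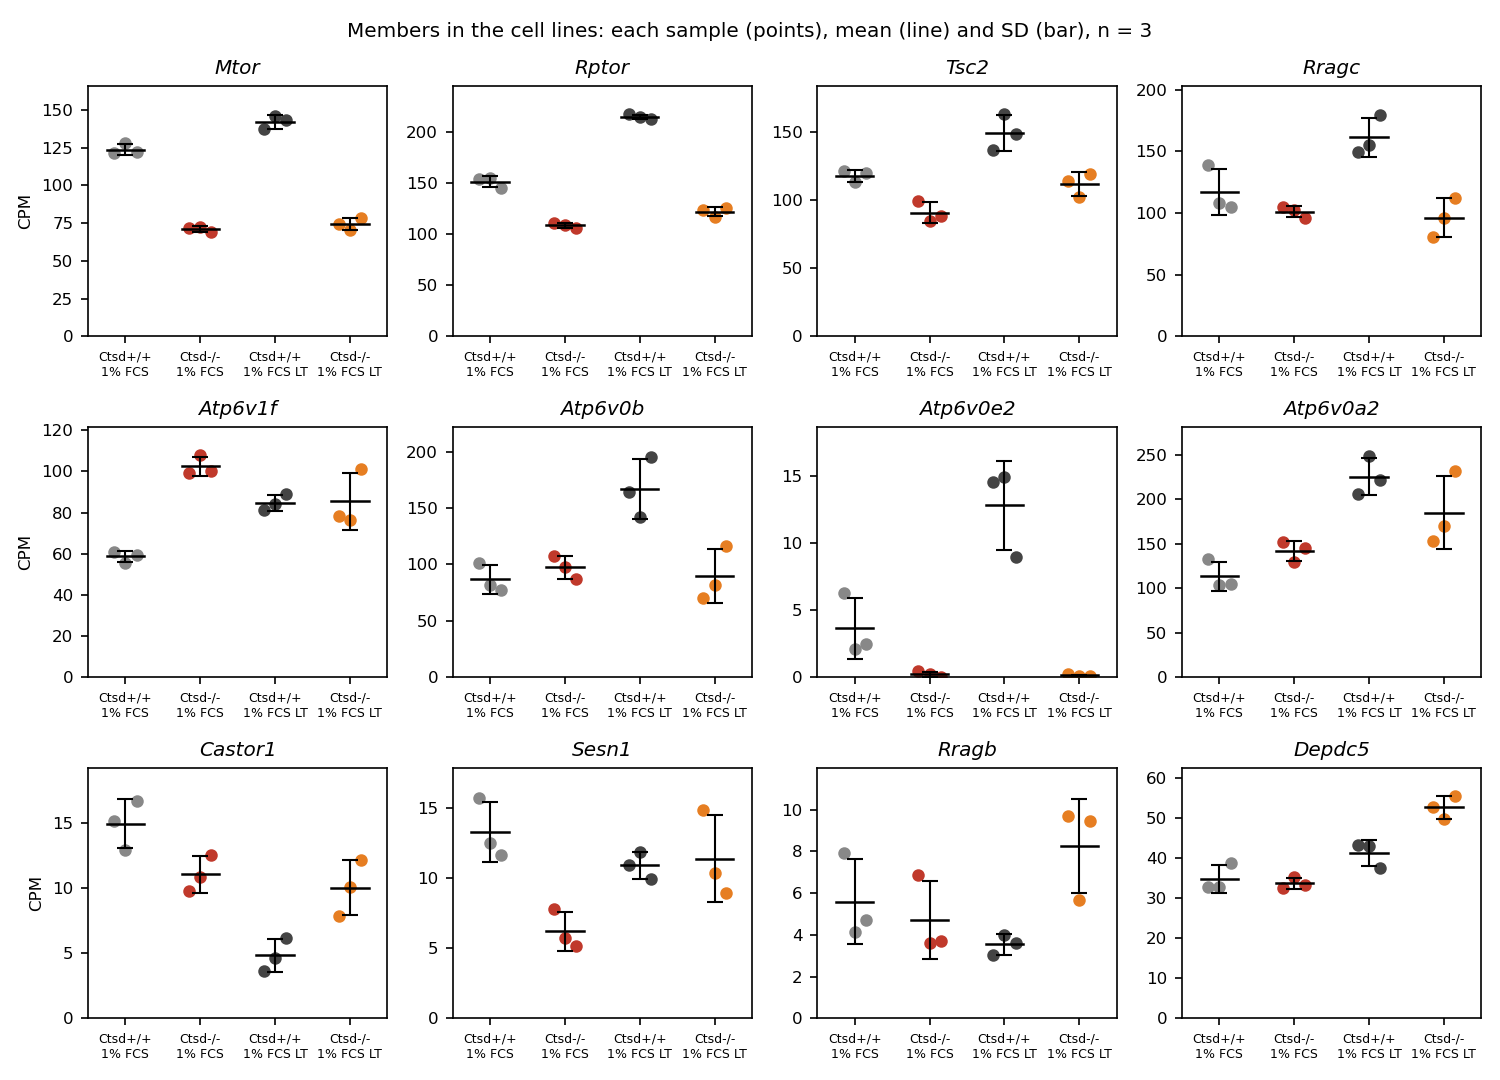
CPM of 12 of the genes in each cell sample (points), with the mean (line) and SD (bar) of 3 samples, for Ctsd+/+ and Ctsd-/- cells in 1% FCS and LT. All axes start at 0. Mtor and Rptor separate the lines at both times, Atp6v0e2 is near 0 in all 6 Ctsd-/- samples, and Castor1 is lowest in Ctsd+/+ LT cells.

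In the V1 sector, 5 of 8 genes were higher in Ctsd-/- cells in 1% FCS and none lower, beside 23.5% and 25.1% of all genes. In LT 0 of 8 were called, beside 20.5% and 19.1%, and the 8 log2 differences lay between -0.20 and 0.08. Atp6v1f, a subunit of the central shaft, was at 61.1, 55.7 and 59.6 CPM in Ctsd+/+ cells and 99.2, 108 and 100.3 in Ctsd-/- cells in 1% FCS. In LT it was at 81.3, 84.2 and 89.0 against 78.5, 76.4 and 101. The groups were wide apart in 1% FCS (0.80 ± 0.11, edgeR adjusted p = 0.00012) and overlapped in LT. Their difference of differences was -0.79 ± 0.16 (edgeR adjusted p = 0.0028).

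The other V1 genes called in 1% FCS were Atp6v1e1 (0.55) and Atp6v1c1 (0.38), both of the stator stalks, Atp6v1d (0.47), of the rotor, and Atp6v1b2 (0.35), of the catalytic ring. Atp6v1e1 was at 115, 101 and 79.8 CPM in Ctsd+/+ and 148, 144 and 140 in Ctsd-/- cells. Atp6v1d was at 62.9, 54.2 and 51.1 CPM against 81.3, 77.4 and 74.2. Neither pair of groups overlapped, and both genes kept their call in all 16 alternatives. Those of Atp6v1c1 and Atp6v1b2 were lost in 5 and 8 of 16, with adjusted p up to 0.142. In Ctsd+/+ cells, Atp6v1c1, Atp6v1b2, Atp6v1f, Atp6v1a and Atp6v1d rose by 0.36 to 0.54 from 1% FCS to LT. In Ctsd-/- cells the log2 differences of the 8 V1 genes with time lay between -0.26 and 0.16, with none called. Atp6v1g1 and Atp6v1h, with Atp6v0d1 of V0 and the accessory Atp6ap1, were called in no comparison.

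In the V0 sector, 1 of 7 genes was higher and 1 lower in Ctsd-/- cells in 1% FCS, beside 23.5% and 25.1% of all genes. In LT 1 was higher and 3 were lower, beside 20.5% and 19.1%. Atp6v0b, a proteolipid of the membrane ring, was at 101, 82.0 and 77.2 CPM in Ctsd+/+ cells in 1% FCS and at 108, 97.4 and 86.7 in Ctsd-/- cells. In LT it rose to 164, 142 and 195 CPM in Ctsd+/+ cells, while Ctsd-/- cells had 70.3, 81.8 and 117. The groups thus overlapped in 1% FCS and not in LT (-0.90 ± 0.19, edgeR adjusted p = 0.0026). The gap between the lines differed between the times by -1.07 ± 0.26 (edgeR adjusted p = 0.0100).

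Atp6v0c, the main proteolipid, was at 39.9, 27.5 and 27.4 CPM in Ctsd+/+ cells and 53.1, 35.5 and 42.1 in Ctsd-/- cells in 1% FCS. In LT the values were 50.7, 51.8 and 51.6 against 37.7, 34.6 and 43.4. The groups overlapped in 1% FCS and not in LT, neither difference held throughout (0.46, lost in 8 of 16 alternatives, and -0.41, edgeR adjusted p = 0.078), and the difference of differences was -0.88 ± 0.24 (edgeR adjusted p = 0.018). This call was lost without Ctsd-/- LT replicate 2 and with the length trend removed (both -0.80, edgeR adjusted p = 0.051 and 0.055). Pseudogenes named after Atp6v0c are annotated, so its reads may have been divided or set aside. Atp6v0e, the ubiquitous e subunit, was lower in Ctsd-/- LT cells (57.0, 65.5 and 79.5 CPM against 82.6, 83.6 and 96.2), but 8 of 16 alternatives did not keep this call of -0.38.

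The subunit a, which forms the proton path, exists as paralogs that direct the pump to different membranes. Atp6v0a2 rose in Ctsd+/+ cells from 133, 104 and 105 CPM to 206, 248 and 222 (0.99 ± 0.16, edgeR adjusted p = 0.00036). Atp6v0a1 was at 128, 87.0 and 54.7 CPM in these cells in 1% FCS and at 53.2, 50.7 and 77.6 in LT, and these values overlapped. In Ctsd-/- LT cells Atp6v0a1 was at 115, 123 and 142 CPM, above all Ctsd+/+ LT samples (1.07 ± 0.27, edgeR adjusted p = 0.0087). Scaled by exon length, Atp6v0a1 supplied 26.1% ± 5.2 (SD, n = 3) of the level of both paralogs in Ctsd+/+ LT cells. In the other cell groups this share was 47.8% to 52.1%.

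Atp6v0e2, the other e subunit (chr6:48537615-48541801, forward strand), had the largest log2 difference of the 46 genes at both times. It was at 6.30, 2.14 and 2.51 CPM in Ctsd+/+ cells in 1% FCS and at 14.5, 15.0 and 9.00 in LT. In Ctsd-/- cells it was at 0.438, 0.219 and 0.0296 CPM, from 18, 8 and 1 reads, and in LT at 0.215, 0.103 and 0.121 CPM, from 9, 4 and 5 reads. The fitted differences were -3.93 ± 0.62 (edgeR adjusted p = 0.00030) and -6.41 ± 0.68 (edgeR adjusted p = 2.3e-05). At these counts their size rests on few reads. Of the length-scaled level of both e subunits, Atp6v0e2 made up 9.51% in Ctsd+/+ cells in 1% FCS and 23.4% in LT, against 0.630% and 0.473% in Ctsd-/- cells. In tumors it was at 4.57 to 17.2 CPM and its groups overlapped, with 4.31% of the level in controls and 5.64% in MMTV-cre;Ctsd-/- tumors.

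**Figure D3:**
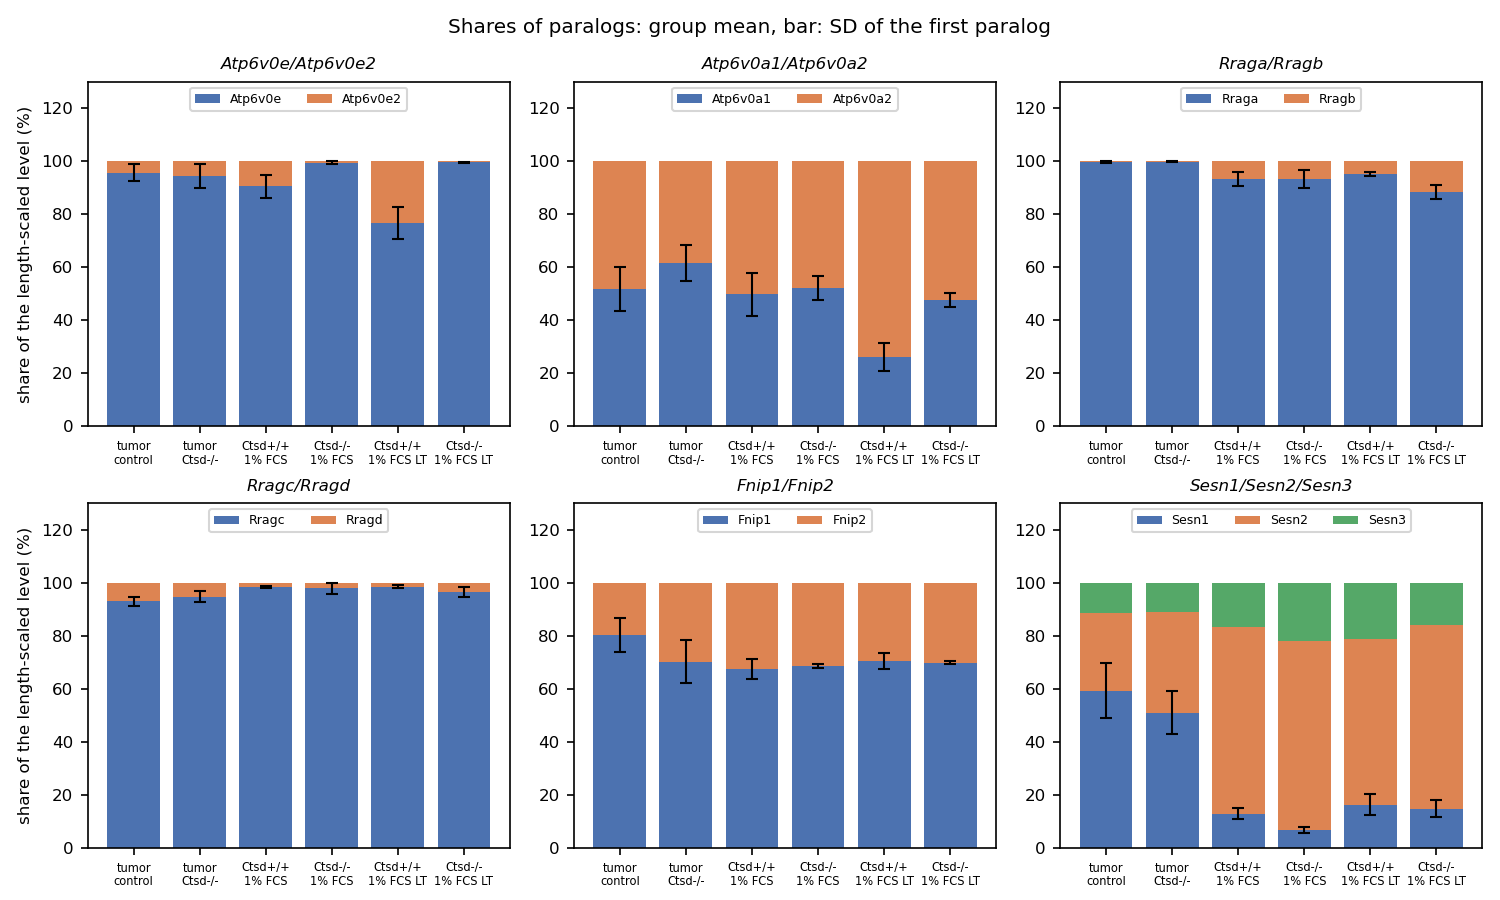
Share (%) of each paralog in the summed level per exon length of its family, as group means (4 tumors or 3 cell samples), with the SD of the first paralog as a bar. Atp6v0e2 and Atp6v0a2 take their largest shares in Ctsd+/+ LT cells, Rragb its largest in Ctsd-/- LT cells, and Sesn1 leads the sestrins in tumors only.

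In Ctsd+/+ cells 10 of the 17 v-ATPase genes rose from 1% FCS to LT and none fell, beside 23.0% and 23.4% of all genes. Besides the V0 and V1 genes above, Atp6ap2, an accessory subunit also known as the prorenin receptor, rose by 0.68, a call lost in 5 of 16 alternatives. All 3 genes of the folliculin complex, which activates the RagC side of the Rag dimer, rose as well: Flcn by 0.73, Fnip1 by 0.62 and Fnip2 by 0.47. Flcn went from 61.4, 39.7 and 40.3 to 71.7, 70.0 and 92.7 CPM without overlap, and Fnip1 and Fnip2 overlapped in CPM. These 3 calls were lost in 3 to 9 of 16 alternatives, each without Ctsd+/+ replicate 2 or 3 in 1% FCS. Over the 24 calls of this comparison, 10 held in all alternatives that kept the threshold and tested the gene (16, or 15 for Atp6v0e2): Atp6v0a2, Atp6v0b, Atp6v0c, Atp6v0e2, Atp6v1b2, Atp6v1c1, Atp6v1f, Rptor, Rheb and Castor1. Without replicate 2 of either time point, 14 genes were called. Between the same samples all 5 epithelial markers and 2 of the 3 macrophage markers tested rose, 2 of 3 fibroblast markers fell, and of 3 endothelial markers 1 rose and 1 fell. Their part in these counts was not tested.

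Promoters of genes that rose are shown because TFEB, a factor that mTORC1 holds in the cytosol, drives many v-ATPase genes. RefSeq promoters on GRCm38.p6, from 250 bases before to 50 after the gene start, matched 38 of the 46 genes. CACGTG, the palindromic E-box that TFEB-like and Myc-like factors bind, was searched on both strands and stood in 10 of 38 (26.3%), against 8.09% of 27025 genes. These 27025 include genes that did not pass the filter on low counts, which all 38 passed. Among genes tested in the cells, 1245 had CACGTG and 9545 did not, a larger share than 8.09%. TCACGTGA, which contains it, was in 3 (7.89%), against 1.12%. TGATGNAA was in 2 (5.26% against 4.51%) and GTAAACA in 1 (2.63% against 4.05%). Of the 10 genes with CACGTG, 5 rose in Ctsd+/+ cells with time and none fell, beside 24.8% and 22.1% of the 1245 genes tested that had it. Of the 28 without it, 11 rose and 4 fell, beside 23.5% and 25.0% of 9545. Between the lines in 1% FCS, 1 of the 10 was higher and 0 lower, beside 26.8% and 24.9% of all genes with it. Of the 28, 6 were higher and 6 lower, beside 24.2% and 26.2% of all genes without it. In LT, 2 of the 10 were higher and 3 lower, beside 20.6% and 18.4%. Of the 28, 4 were higher and 4 lower in LT, beside 21.9% and 19.5%. Of the 5 that had CACGTG and rose, 3 are shown as the 150 bases before the RefSeq start, 5′ to 3′ on the strand of the gene, on GRCm38.p6, with CACGTG in capitals.
Atp6v0b, chr4:117887330-117887479, reverse strand: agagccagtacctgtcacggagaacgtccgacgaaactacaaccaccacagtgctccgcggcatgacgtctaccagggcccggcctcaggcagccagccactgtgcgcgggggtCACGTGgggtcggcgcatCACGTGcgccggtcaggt
Rragc, chr4:123917283-123917432, forward strand: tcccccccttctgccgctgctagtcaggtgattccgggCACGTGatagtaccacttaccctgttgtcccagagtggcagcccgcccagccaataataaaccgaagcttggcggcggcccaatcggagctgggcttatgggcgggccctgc
Fnip1, chr11:54438029-54438178, forward strand: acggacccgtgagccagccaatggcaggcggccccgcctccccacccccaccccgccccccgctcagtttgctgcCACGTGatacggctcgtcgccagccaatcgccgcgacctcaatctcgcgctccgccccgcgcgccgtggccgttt
Starts differ between annotations: that of RefSeq lies 4 bases inside the GENCODE gene for Atp6v0b, and 13 and 20 bases before it for Rragc and Fnip1. For Rheb and Atp6v1a it lies 263 and 446 bases inside, so their windows are not shown. Counted from the RefSeq start, Atp6v0b had the sequence at 36 and 18 bases before the start, which puts both copies nearest to it, and Atp6v1a had it farthest away, at 131. Rragc had it at 112, Rheb at 96 and Fnip1 at 75. Only the copy in Atp6v1a lies within TCACGTGA. A match of letters is a description and does not show that a factor binds.

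The Ragulator subunits called between the lines were all higher in Ctsd-/- cells: Lamtor2 and Lamtor5 in 1% FCS, and Lamtor2, Lamtor3 and Lamtor4 in LT. In 1% FCS, Lamtor2 was at 25.0, 25.3 and 28.0 CPM in Ctsd+/+ cells and 36.6, 40.3 and 38.8 in Ctsd-/- cells (0.56 ± 0.11, edgeR adjusted p = 0.0014). Lamtor5 was also higher (0.42), a call lost without Ctsd+/+ replicate 1 or Ctsd-/- replicate 2 (edgeR adjusted p = 0.061 and 0.073). In LT, Lamtor3 was at 18.7, 18.3 and 16.9 CPM in Ctsd+/+ and 24.1, 26.8 and 28.9 in Ctsd-/- cells (0.57 ± 0.13, edgeR adjusted p = 0.0054). It had been at 29.4, 26.9 and 21.4 against 26.3, 26.6 and 22.8 in 1% FCS, where the groups overlapped, and it fell with time in Ctsd+/+ cells (-0.53, edgeR adjusted p = 0.0067). Lamtor4 was at 21.6, 22.7 and 19.7 CPM against 19.1, 19.6 and 20.2 in 1% FCS, and at 17.1, 21.8 and 20.3 against 24.0, 23.6 and 27.6 in LT. The LT difference of Lamtor4 (0.35 ± 0.12, edgeR adjusted p = 0.038) and that of Lamtor2 (0.33) each lost their call in 8 of 16 alternatives, with adjusted p up to 0.185. Lamtor1, the membrane anchor, was not called in any cell comparison.

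Among the Rag GTPases, which work as a dimer of RagA or RagB with RagC or RagD, the lines differed in LT. Rragc was at 139, 108 and 105 CPM in Ctsd+/+ and 105, 102 and 96.3 in Ctsd-/- cells in 1% FCS, without a call. In LT it was at 149, 155 and 180 against 80.7, 95.8 and 112, with no overlap (-0.74 ± 0.14, edgeR adjusted p = 0.0014). With time, Rragc rose in Ctsd+/+ cells by 0.46 (edgeR adjusted p = 0.018), a call lost in 3 of 16 alternatives. Rragb, the less abundant paralog of Rraga, was at 7.92, 4.15 and 4.71 CPM against 6.89, 3.61 and 3.70 in 1% FCS. In LT it was at 3.03, 4.00 and 3.60 in Ctsd+/+ cells and 9.70, 5.66 and 9.43 in Ctsd-/- cells (1.22 ± 0.33, edgeR adjusted p = 0.012). Its share of the length-scaled RagA and RagB level was 11.7% ± 2.7 in Ctsd-/- LT cells and 4.78% ± 0.69 in Ctsd+/+ LT cells (SD, n = 3). The difference of differences, 1.46 ± 0.46 (edgeR adjusted p = 0.033), lost its call in 7 of 21 alternatives, each with 1 replicate left out, with adjusted p up to 0.081. Rraga and Rragd were not called in any cell comparison.

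The GATOR complexes, which relay amino acid signals to the Rags, changed in single genes. Depdc5, a GATOR1 subunit, was the only one of the 46 called with time in Ctsd-/- cells. It went from 32.6, 35.2 and 33.4 to 53.0, 49.9 and 55.6 CPM without overlap (0.65 ± 0.10, edgeR adjusted p = 0.011). The call was lost without Ctsd-/- replicate 3 in 1% FCS (0.64, edgeR adjusted p = 0.060). In Ctsd+/+ cells Depdc5 was at 32.8, 32.8 and 38.8 CPM in 1% FCS and 43.3, 43.0 and 37.5 in LT, where it was below the Ctsd-/- cells by 0.36 (edgeR adjusted p = 0.016, lost in 4 of 16 alternatives). Nprl3, also of GATOR1, was at 39.3, 45.8 and 42.6 CPM in Ctsd+/+ and 35.6, 29.5 and 30.1 in Ctsd-/- cells in 1% FCS (-0.42 ± 0.12, edgeR adjusted p = 0.011). Seh1l, which serves in GATOR2 and in the nuclear pore, was at 64.1, 67.6 and 74.0 CPM against 94.1, 127 and 111 (0.69 ± 0.13, edgeR adjusted p = 0.00095). With time in Ctsd+/+ cells Nprl3 (-0.32) and Mios, a GATOR2 subunit (-0.34), fell, calls lost in 8 and 6 of 16 alternatives. Nprl2 and Wdr24 were called in no cell comparison.

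Castor1, the arginine sensor (chr11:4218225-4222409, forward strand), was at 15.2, 13.0 and 16.7 CPM in Ctsd+/+ cells in 1% FCS and at 3.67, 4.64 and 6.19 in LT. In Ctsd-/- cells it was at 9.76, 10.9 and 12.6 CPM in 1% FCS and 7.90, 10.1 and 12.1 in LT. It thus fell in the first line (-1.63 ± 0.22, edgeR adjusted p = 0.00012), while the second overlapped between times (-0.14 ± 0.22, edgeR adjusted p = 0.78). In LT it was higher in Ctsd-/- cells (1.05 ± 0.22, edgeR adjusted p = 0.0026), and the difference of differences was 1.49 ± 0.31 (edgeR adjusted p = 0.0036). Each of these 3 calls of Castor1 held in every alternative.

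Sesn1, a sestrin that p53 and FoxO factors induce, was at 15.7, 12.5 and 11.6 CPM in Ctsd+/+ and 7.76, 5.72 and 5.11 in Ctsd-/- cells in 1% FCS (-1.09 ± 0.22, edgeR adjusted p = 0.0017). In LT the groups overlapped, at 10.9, 11.9 and 9.89 against 14.8, 10.3 and 8.95 CPM. The difference of differences was 1.16 ± 0.31 (edgeR adjusted p = 0.015). Within Ctsd-/- cells every LT sample lay above every 1% FCS sample, but the difference of 0.87 ± 0.22 missed the threshold (edgeR adjusted p = 0.064). Sesn2, the leucine sensor, fell with time in Ctsd+/+ cells by 0.76 with overlapping groups (68.7, 47.8 and 77.1 against 31.4, 30.2 and 53.0 CPM), a call lost without replicate 1 or 2 of the LT cells and with only the groups compared in the fit (edgeR adjusted p = 0.055, 0.059 and 0.055). Sesn3 was not called.

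Taken as differences of differences between the times, 4 genes were called higher and 6 lower, beside 16.1% and 14.1% of all genes. With a log2 value past 1 required, 4 remained (19.1% of all genes): Castor1, Rragb, Sesn1 and Atp6v0b. The median over the 46 genes was -0.28, and 32 of them had a negative value. Atp6v0b, Atp6v1f, Sesn1 and Castor1 held in all 21 alternatives. Atp6v1b2 and Atp6v1c1 (both -0.55) lost their call in 10 and 9, and Lamtor3 (0.60) in 9, with adjusted p up to 0.19. Leaving out Ctsd-/- replicate 2 in 1% FCS, or replicate 1 or 2 in LT, gave 6, 6 and 5 calls. The 5 epithelial markers were all called lower, 2 of 3 macrophage markers were lower, and 2 of 3 fibroblast markers were higher in this comparison. Of the 17 v-ATPase genes, 5 were called lower here, the share of all genes being 14.1%.

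**Figure D4:**
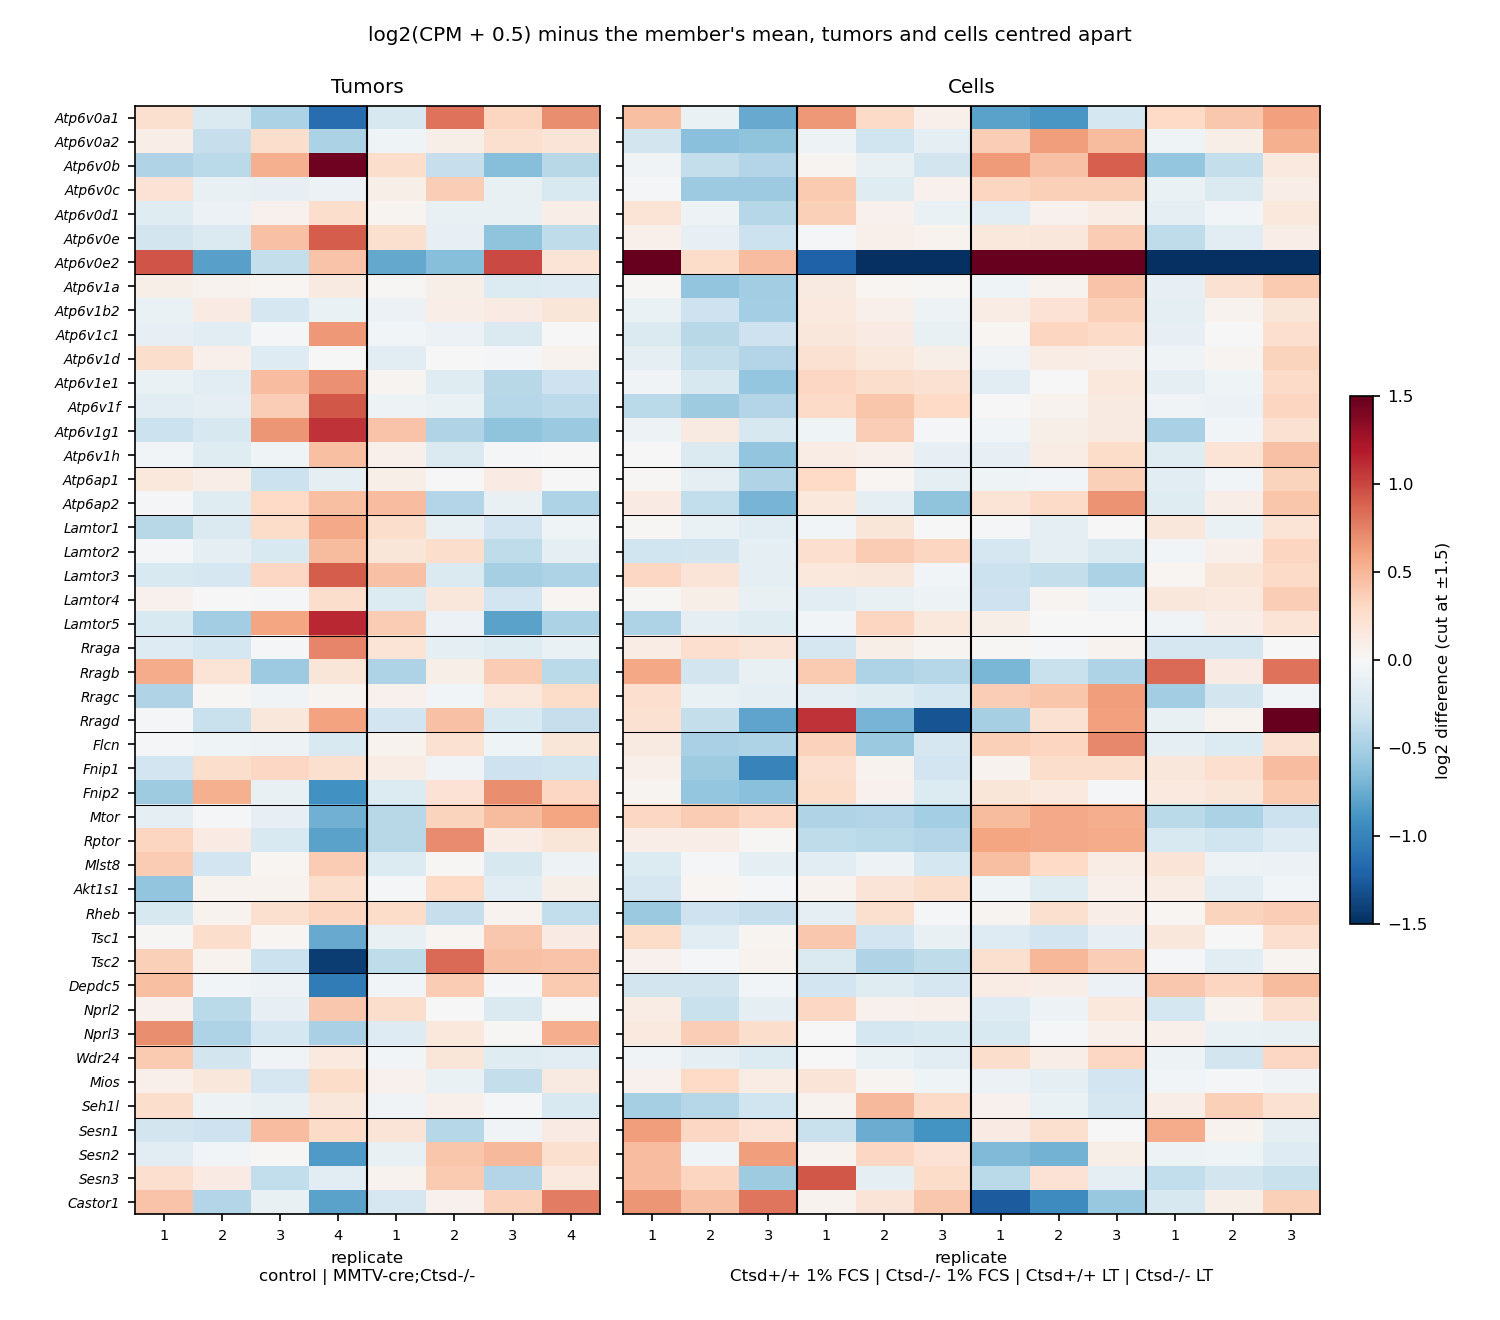
log2(CPM + 0.5) of the 46 genes in each sample minus the mean of the gene, with tumors and cells centred apart, colors cut at 1.5, rows by role and columns by group and replicate. In cells, the Mtor and Rptor rows turn from red to blue with genotype. In tumors, control 4 stands out with Atp6v0b, Atp6v1g1 and Lamtor5 high and Tsc2, Depdc5 and Atp6v0a1 low.

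Other genes of the pathway, 36 in all, were listed by function, and their counts stand beside the shares of all genes, 23.5% higher and 25.1% lower in 1% FCS and 20.5% and 19.1% in LT. Of 8 further v-ATPase isoforms, 3 passed the filter in cells. Atp6v1c2, an isoform of the C subunit, averaged 0.234 CPM in Ctsd+/+ cells in 1% FCS, 0.982 in Ctsd-/- cells, 2.37 in Ctsd+/+ LT and 0.586 in Ctsd-/- LT cells. Of 15 further inputs to mTORC1, 2 were higher and 2 lower in Ctsd-/- cells in 1% FCS, and 3 and 3 in LT. Ddit4 (REDD1), a stress-induced inhibitor of mTORC1, was higher by 0.70 in 1% FCS and lower in LT (-0.63). Deptor, a subunit that restrains mTOR, fell with time in Ctsd+/+ cells (-1.62) and was higher in Ctsd-/- LT cells by 1.81. Of 9 mTORC1 substrates, 3 were higher in 1% FCS (Rps6kb2, Eif4ebp2 and Maf1) and 2 in LT (Lpin1 by 1.09 and Rps6kb1). Of 4 mTORC2 genes, Prr5l went from a mean of 8.06 to 0.127 CPM with time in Ctsd+/+ cells and was at 1.26 and 0.713 in Ctsd-/- cells. Its mean in Ctsd+/+ LT cells comes from samples at 0, 0 and 0.380 CPM.

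In the tumors no gene of the 46 passed an edgeR adjusted p of 0.05. The lowest was 0.551, and 1 of all 18617 genes passed (0.00537%). At the unadjusted threshold of 0.1 that the study used, MMTV-cre;Ctsd-/- tumors had 3 genes higher and 2 lower, beside 8.44% and 8.27% of all genes. At 0.05 unadjusted, 1 was called, beside 8.94%. The groups overlapped for all 46, while 4.15% of all genes had groups apart. The count moved when a tumor was left out: 1 without control 4, 3 without control 3, 11 without control 1 or 2, 13 without MMTV-cre;Ctsd-/- tumor 1, 2 without tumor 2 and 1 without tumor 3 or 4. No share of all genes was taken with a tumor left out, so these moves cannot be read as particular to the 46.

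Atp6v0a1 was at 72.8, 52.9, 44.4 and 27.7 CPM in controls and 52.4, 109, 77.2 and 100.5 in MMTV-cre;Ctsd-/- tumors (0.78 ± 0.32, edgeR unadjusted p = 0.035, adjusted p = 0.55). Mtor was at 29.2, 31.8, 29.5 and 19.3 against 23.9, 40.6, 44.8 and 48.4 CPM (0.52 ± 0.26, edgeR unadjusted p = 0.069). Tumors 2 to 4 were above all controls, and tumor 1 was below controls 1 to 3. Sesn2 was at 10.2, 11.2, 11.6 and 6.16 against 10.6, 15.5, 16.3 and 13.6 CPM (0.52 ± 0.26, edgeR unadjusted p = 0.074). Lower were Atp6v1f, at 195, 199.8, 284 and 422 against 209, 206, 163 and 168 CPM (-0.56 ± 0.27, edgeR unadjusted p = 0.065), and Atp6v1e1 (-0.47 ± 0.25, edgeR unadjusted p = 0.081). For both, controls 3 and 4 were the highest of the 8 tumors. Rptor, Mlst8, Rragc, Rheb and Lamtor4 differed by 0.29, -0.28, 0.22, -0.18 and -0.14 without a call.

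Exon length moved with these differences. Mtor has 8785 exon bases and Atp6v0a1 has 4047, while Atp6v1e1 has 1312 and Atp6v1f 1063. Over the 46 genes, the log2 difference between the tumor groups rose with exon length (Spearman rho 0.49, n = 46), and over 18527 genes rho was 0.30. Within single tumors, the deviation from the median of the 8 tumors fell with length in control 3 (rho -0.356), control 4 (-0.659) and MMTV-cre;Ctsd-/- tumor 1 (-0.556). In the other 5 tumors it rose, with rho from 0.107 to 0.378. Control 4, the tumor with the fewest reads, had 586 CPM of Atp6v0b against 136 to 308 in the other tumors, and 24.6 CPM of Tsc2 against 50.8 to 120.5. With the length trend of each tumor removed 3 genes were called, and Mtor was no longer among them (0.25, edgeR unadjusted p = 0.19). With these 3 tumors left out, 4 were called, all higher.

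**Figure D5:**
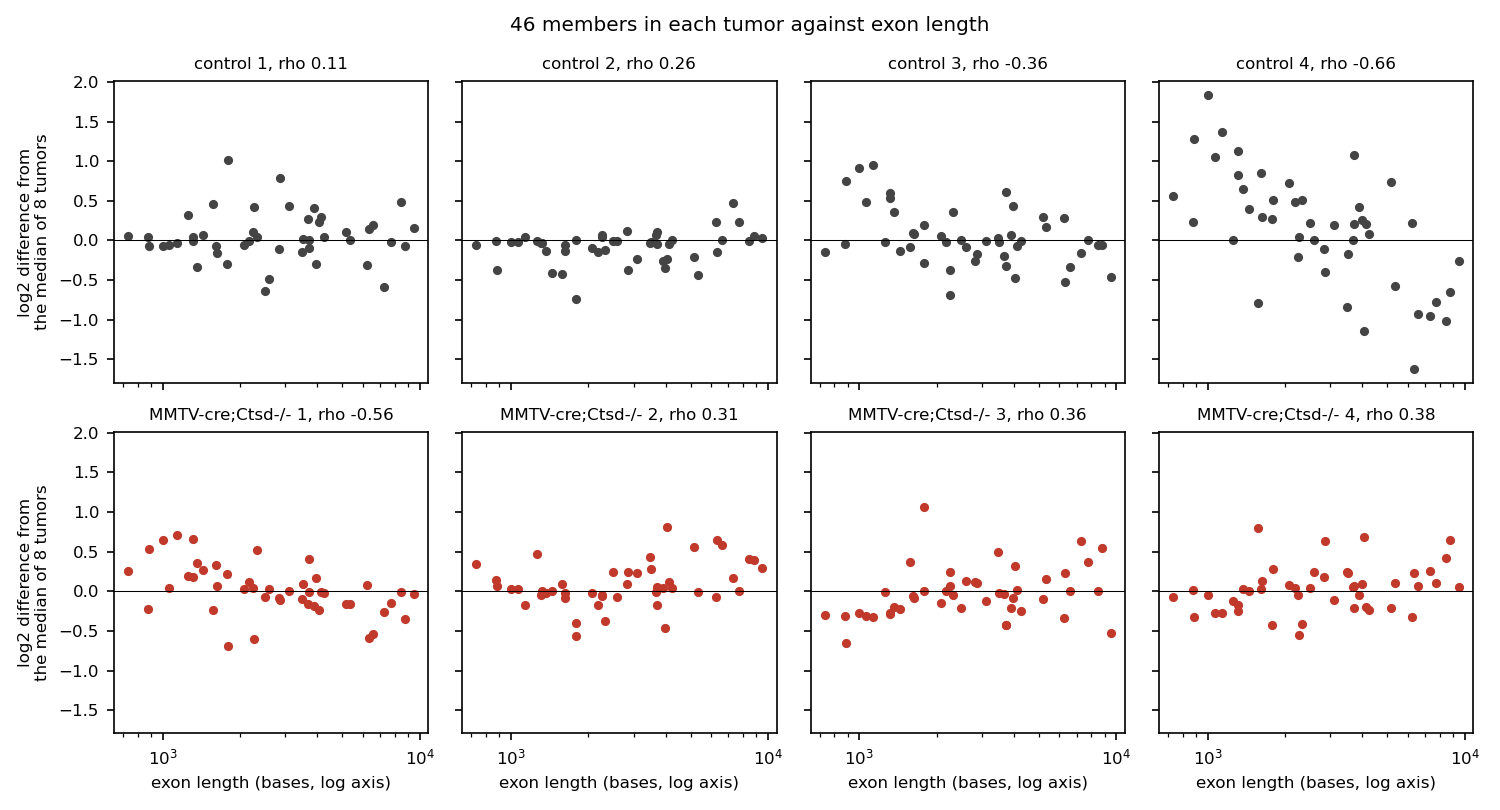
Each of the 46 genes in each of the 8 tumors: exon length (bases, log axis) against the log2 difference of log2(CPM + 0.5) from the median of the 8 tumors, with Spearman's rho in each title. In control 4 short genes lie high and long genes low (rho -0.66), and in tumors 2 to 4 of MMTV-cre;Ctsd-/- the slope is upward.

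Cell type markers also moved with the tumor groups. The 5 adipocyte markers (Adipoq, Plin1, Lep, Cidec, Retn) summed to 73.2 to 664 CPM in controls and 519 to 4578 in MMTV-cre;Ctsd-/- tumors, and all 5 were higher at the same threshold. The 4 endothelial markers summed to 29.1 to 80.3 and 46.0 to 206.6 CPM, with 3 higher, and the 6 macrophage markers to 149 to 378 and 196 to 252, with 0 called. Epithelial markers summed to 4632 to 7887 and 3991 to 5798 CPM, with 0 called. With the adipocyte markers as a covariate 1 of the 46 was called, and with the epithelial markers 0.

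Tumors and cells were set side by side without a test, since their libraries were made from different amounts of RNA and counted with different strand rules. Long genes were lower and short ones higher in control tumors than in Ctsd+/+ cells in 1% FCS: the ratio of mean CPM had a rho of -0.67 with exon length (n = 46). The median ratio was 3.50 for the 16 genes of up to 2000 exon bases and 0.448 for the 13 of over 4000. Mtor and Rptor averaged 27.5 and 33.6 CPM in control tumors and 124 and 151 in those cells. Rragb stood out, with 0 to 38 reads in a tumor (at most 0.573 CPM) against 112 to 405 reads in a cell sample. Sesn1 made up 59.3% of the length-scaled sestrin level in control tumors and 51.0% in MMTV-cre;Ctsd-/- tumors, whereas Sesn2 led in all cell groups with 62.5% to 71.3%.

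Per kilobase of exon, the order of levels in cells was headed by Atp6ap1, an accessory subunit of the pump, at 162 to 195 CPM per kb in the 4 groups. Atp6v1g1, Atp6v1e1, Atp6v0b and Atp6v1f were also among the 6 highest of the 46 genes in every cell group. In control tumors Atp6v1g1 came first, with 491 CPM per kb, followed by Atp6v1e1 with 324 and Atp6v0b with 303. At the other end, Rragd, Rragb and Atp6v0e2 were the least abundant genes of their families in the Ctsd-/- cells.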

How the data were processed

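RNA was measured by sequencing in 8 PyMT tumors and 12 samples of tumor cells. The authors trimmed reads with Trimmomatic and used STAR to map them to GRCm38/mm10 and to count them per gene, with versions not given in the sources used here. The deposited counts are raw, set aside reads that fit several positions or genes, and come per strand. The opposite-strand column was used for the cells, where it held 97.1% to 97.3% of the reads assigned by strand, and the column regardless of strand for the tumors, where that share was 52.8% to 53.7%. Lines of unassigned reads were left out. Of 45706 identifiers, 45143 matched GENCODE M21, which gave symbols, positions and exon lengths.

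Low counts were filtered with filterByExpr, libraries were scaled by TMM, and edgeR 4.0.16 (R 4.3.3) fitted quasi-likelihood models to 18617 genes in the tumors and 15178 in the cells, with the 4 cell groups in 1 fit and p-values adjusted by Benjamini and Hochberg over all genes. Replicates varied by a common biological coefficient of 0.429 (tumors) and 0.217 (cells). The code was tested on simulated data. Cells were called at an adjusted p under 0.05 and tumors at an unadjusted p under 0.1, after the thresholds of the study. CPM used the TMM-scaled library. The difference of differences is the genotype difference in LT minus that in 1% FCS. A count of reads carries counting error, so Atp6v0e2 in Ctsd-/- cells and Rragb are given with their counts. Atp6v1c2 and Prr5l, also low, are given as CPM only.

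The alternatives were DESeq2 1.42.0, limma-voom (limma 3.58.1), other size factors, filters, strand columns and thresholds, the replicate number as a block, only the 8 cell samples that share an LR code of the labels (its meaning is not stated), only the groups compared, marker covariates in tumors, and each sample left out. Removing a length trend and leaving out 3 tumors were added after the data were seen. Of the 46 genes, 12 share exon bases with another gene, 8 of them over more than 5% of their exon length, which touches the tumor counts most. Full values went to genes whose proteins the study assayed, to the largest called and non-overlapping genes of each comparison, to their paralogs, and to further called genes. The members, lists and rule were chosen with earlier results of these data known.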

Additional observations from a re-analysis of the deposited data

Results flagged for a closer look

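A tumor stood apart from the other 3 of its group in 5 of 91 pairs of gene and group, where chance gives about 1 in 20, and 1 pair with a tumor at 0 was not tested. Control 1 had 38.3 CPM of Atp6v0c against 30.2 to 30.9 in the other controls, and 19.3 CPM of Fnip1 against 28.1 to 29.5. Control 4 had 19.3 CPM of Mtor against 29.2 to 31.8. MMTV-cre;Ctsd-/- tumor 1 had 559 CPM of Atp6v1g1 against 274 to 304, and tumor 2 had 7.21 CPM of Rragd against 4.00 to 4.37.

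The genotype difference in LT differed from that in 1% FCS, by the interaction term of edgeR, for 10 genes. It was lower in LT for Atp6v0b (-1.07, edgeR adjusted p = 0.0100), Atp6v0c (-0.88, 0.018), Atp6v1f (-0.79, 0.0028), Atp6v1b2 (-0.55, 0.036), Atp6v1c1 (-0.55, 0.036) and Rptor (-0.34, 0.029). It was higher in LT for Castor1 (1.49, edgeR adjusted p = 0.0036), Rragb (1.46, 0.033), Sesn1 (1.16, 0.015) and Lamtor3 (0.60, 0.031). All 10 use the Ctsd+/+ cells, whose summed marker levels stood apart at both times.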

How the results depend on the processing

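No called gene reversed its direction in the comparison that called it, under any alternative run. Uncalled genes did, up to 12 of 41 in tumors (with 3 tumors left out) and 8 of 32 in LT (without Ctsd-/- replicate 3). In tumors the 5 called genes became 0 at an adjusted p of 0.05, 8 without a filter on low counts, 2 with the replicate block, 1 with the adipocyte and 0 with the epithelial covariate, 3 with the length trend removed, and 1 to 13 with a tumor left out. Requiring a log2 change past 1 left 2 of 16 in 1% FCS, 4 of 14 in LT, 0 of 1 for time in Ctsd-/- cells, 2 of 24 for time in Ctsd+/+ cells and 4 of 10 for the difference of differences. With 1 sample left out the counts were 12 to 19, 11 to 13, 0 to 2, 14 to 24 and 5 to 14. For time in Ctsd-/- cells, DESeq2, no filter and the replicate block each called 2, the samples of a single LR code called 3, and leaving out replicate 3 of the 1% FCS or of the LT cells gave 0 or 2. For the difference of differences, DESeq2 and the samples of a single LR code each called 16. The cause of these shifts was not tested, other than that a stricter threshold calls fewer genes.

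Replicate numbers went with likeness of the samples in some comparisons only, and the main fit held no replicate term. Same-numbered deviations correlated by -0.303 to -0.008 in tumors, 0.09997 to 0.362 in 1% FCS and 0.002 to 0.119 in LT. Between times they correlated by 0.077 to 0.192 in Ctsd-/- and -0.143 to -0.033 in Ctsd+/+ cells. The mean was 0.254 for the same number against -0.126 for other numbers in 1% FCS, and 0.147 against -0.073 between times in Ctsd-/- cells. In tumors it was -0.111 against 0.038. In 1% FCS, all 3 Ctsd+/+ samples correlated best with the Ctsd-/- sample of their own number. All 3 Ctsd-/- samples in 1% FCS did so with the Ctsd-/- LT sample of their number. The best match was not taken from the other side. The replicate block called 17 in 1% FCS, 14 in LT, 21 for time in Ctsd+/+ cells and 9 for the difference of differences. Depth was ample for most genes and limits Atp6v0e2 in Ctsd-/- cells and Rragb in tumors.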
